A study of Mus musculus with 4 samples.

Results

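Expression of 10 genes that the transcription factor p53 is known to activate, namely Cdkn1a, Btg2, Ccng1, Mdm2, Bax, Trp53inp1, Phlda3, Eda2r, Gdf15 and Sesn2, was followed in mouse liver after an overdose of acetaminophen (APAP). The genes were selected by their symbols and not by a threshold on reads, but with earlier results of these data known. Their counts beside the shares of all genes are thus descriptive. Each of the 10 was found once among the 27027 entries of the count table. Male C57BL/6J mice aged 9 to 12 weeks were fasted for 10 h and injected intraperitoneally with NaCl solution (control) or with APAP at 300 mg/kg, which was dissolved in the same solution. Livers were taken 24 h or 48 h later. Hepatic RNA of 6 mice was combined for each control pool and of 7 mice for each APAP pool, and each of the 4 pools gave 1 library of 3′ mRNA ends (massive analysis of cDNA ends, MACE). All mice were of the same wild-type strain and were fasted, so the control pools carry the fasting and the injection too. Since each group was a single pool with 1 library, the spread between mice is not visible in these data, and a difference at one time point has no replicate check. The libraries held 4859661 reads (control, 24 h), 5191990 reads (control, 48 h), 5698778 reads (APAP, 24 h) and 4938164 reads (APAP, 48 h).

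p53 is kept at a low level in unstressed cells because Mdm2, an E3 ubiquitin ligase and itself a p53 target, marks it for degradation. DNA damage, oxidative stress and other insults release p53 from this control, mostly at the protein level, and p53 then binds response elements near its target genes, which halt the cell cycle, promote cell death, or adjust metabolism and repair. In APAP intoxication hepatocytes form a reactive metabolite that depletes glutathione and damages mitochondria and DNA, and surviving hepatocytes later divide to replace the lost tissue, so that a cell cycle inhibitor such as the Cdkn1a product p21 is of interest during both phases.

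A p53 response element, made of a pair of adjacent half-sites, was searched on both strands of the promoter windows of RefSeq (build GRCm38.p6, 250 bases before to 50 bases after each start), with no spacer, at most 2 mismatches in 20 bases and the central C and G of each half-site kept. Windows were at hand for 9 of the 10 genes, and elements were found for 2 of them, Cdkn1a and Ccng1. Each of these elements differed from the consensus at 1 base. They are shown because they are the only stretches among the windows of the targets that match the consensus by this rule, with the element in capitals and flanks in lower case, 5′ to 3′ on the strand of the gene.
Cdkn1a, plus strand, chr17:29090888-29090987: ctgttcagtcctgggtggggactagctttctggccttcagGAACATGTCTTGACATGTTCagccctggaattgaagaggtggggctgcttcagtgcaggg
Ccng1, minus strand, chr11:40755422-40755521: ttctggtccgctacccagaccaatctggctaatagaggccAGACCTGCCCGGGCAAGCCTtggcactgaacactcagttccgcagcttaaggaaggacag
The Cdkn1a element (chr17:29090928-29090947) began 51 bases before the upstream one of the annotated starts of this gene, and the window of the downstream start (chr17:29093519-29093818) held no match. The Ccng1 element (chr11:40755462-40755481) began 195 bases before its start. Among all 32851 promoter windows, 0.326% held such a match. Of 32 other p53 targets with a window, the match was present in 3, namely Gtse1, Rps27l and Zfp365. A match describes the sequence alone, and a window without a match says nothing about binding elsewhere, as many p53 elements lie in introns or farther upstream.

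Cdkn1a was the target with the largest difference at 24 h. In normalized reads, that is reads divided by a size factor for each library, both APAP pools lay above both control pools for 8 of the 10 targets, whereas Gdf15 and Sesn2 overlapped. Over all 12113 genes tested, which had on average 10 normalized reads or more per pool, this pattern was seen in 24.8%, against 7 of the 9 targets among them. At least 2-fold higher amounts at 24 h were found for 4 of the 10 targets (Cdkn1a, Gdf15, Phlda3 and Eda2r), compared with 5.85% of all genes tested, and at 48 h for 3 of the 10 (Cdkn1a, Phlda3 and Eda2r), compared with 5.77%. Eda2r, which had very few reads, is not among the genes tested, and without it the counts were 3 of 9 at 24 h, 2 of 9 at 48 h and 2 of 9 at both times. None of the 10 was at least 2-fold lower, where 5.68% of all genes were at 24 h and 5.61% at 48 h. Cdkn1a, Phlda3 and Eda2r were past 2-fold higher at both times, as were 2.16% of all genes. With the control pool of the other time, Cdkn1a alone was counted, as Phlda3 stood at 1.59 and Eda2r at 1.06 or more at 24 h. For Eda2r this is a lower bound, since the 0 reads of that control pool were set to 3 reads. A gene can reach the mean of 10 normalized reads through its APAP pools alone, which favours a higher value under APAP, and Phlda3 is such a gene. Over the 8 targets and 11689 genes that reached this mean in the control pools, 2 of 8 targets were past 2-fold at 24 h and 4.13% of genes, and 1 of 8 at 48 h (Cdkn1a) and 4.22% of genes.

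**Figure D1:**
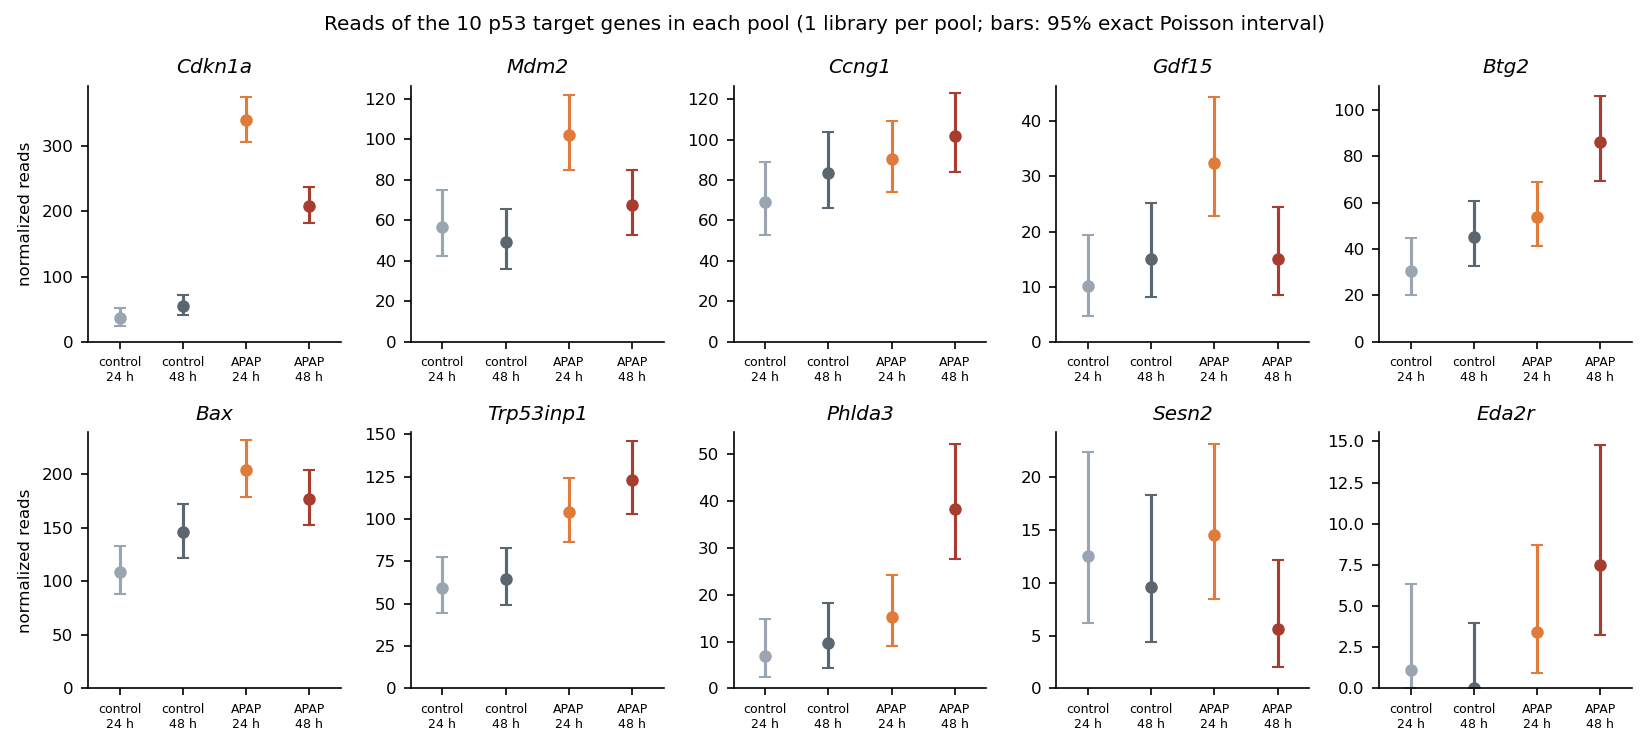
Normalized reads (y axis, separate scale for each gene) of the 10 p53 target genes in the 4 pools (x axis), with 1 library per pool and bars for the 95% exact Poisson interval. Cdkn1a stands at 340 and 209 normalized reads in the APAP pools against 36.4 and 54.7 in the control pools, whereas the pools of Gdf15 and Sesn2 overlap.

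Cdkn1a encodes p21, which binds and blocks cyclin-dependent kinases and thereby arrests cells. Reads numbered 32 under control and 399 under APAP at 24 h, and 51 and 223 at 48 h. In normalized reads the order was APAP at 24 h (340, exact Poisson interval 307 to 375), APAP at 48 h (209, 183 to 238), control at 48 h (54.7, 40.7 to 71.9) and control at 24 h (36.4, 24.9 to 51.4). The intervals of the control pools overlap each other, and the other neighbours in this order are separated. Expression was 9.34-fold higher with APAP at 24 h, with a 95% exact interval of 6.51 to 13.8, and 3.82-fold higher at 48 h, with an interval of 2.81 to 5.29. These intervals, and those given for the other genes, cover counting error only. By fold, Cdkn1a ranked at position 38 of 12112 genes at 24 h and at position 131 of 12113 at 48 h. It was the only one of the 10 targets for which the lower bound of the interval was above 2 at either time.

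Btg2, an antiproliferative partner of the mRNA deadenylase complex, gave 27 and 63 reads (control, APAP) at 24 h and 42 and 92 reads at 48 h, an order of pools that is used for all genes below. Its folds were 1.75 (interval 1.10 to 2.85) and 1.92 (1.32 to 2.83). The control pools themselves differed by 1.47-fold, with more reads at 48 h, an interval of 0.884 to 2.47 that includes 1, and set against the control pool of the other time Btg2 stood at 1.19 at 24 h and 2.81 at 48 h. Ccng1, which encodes cyclin G1, a partner of protein phosphatase 2A that acts back on Mdm2 and p53, gave 61 and 106 reads at 24 h and 78 and 109 reads at 48 h. Its APAP pools were the higher ones, but the folds of 1.30 (0.941 to 1.81) and 1.22 (0.905 to 1.66) were of about the size of the difference between the control pools (1.21-fold). Cdkn1a and Ccng1, both with an element shown above, thus had the largest and nearly the smallest fold of the 10 at 24 h.

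Mdm2, the ubiquitin ligase of the feedback loop, gave 50 and 120 reads at 24 h and 46 and 72 reads at 48 h. It was 1.80-fold higher at 24 h (interval 1.28 to 2.55) and 1.37-fold higher at 48 h, where the interval of 0.933 to 2.03 includes 1. The control pools did not differ beyond counting error, at a ratio of 0.868 (0.569 to 1.32).

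Among the targets that act in cell death, Bax, a BCL2 family protein that opens the outer mitochondrial membrane, gave 96 and 240 reads at 24 h and 136 and 189 reads at 48 h. It was 1.87-fold higher at 24 h (1.47 to 2.40) and 1.22-fold at 48 h (0.970 to 1.53). The control pool at 48 h was itself 1.34-fold above that at 24 h (1.02 to 1.75), and Bax was the only target for which the interval between control pools excluded 1. Trp53inp1, a stress-induced nuclear protein that takes part in p53-dependent cell death and in autophagy, gave 52 and 122 reads at 24 h and 60 and 131 reads at 48 h. With folds of 1.76 (1.26 to 2.48) and 1.91 (1.40 to 2.64) and control pools at a ratio of 1.09, Trp53inp1 resembled Btg2 in that the distance from control did not become smaller at 48 h.

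Phlda3, whose product competes with AKT for membrane lipids and so dampens survival signaling, was low in the control pools, with 6 reads at 24 h and 9 reads at 48 h, against 18 and 41 reads under APAP. Its fold was 2.25 at 24 h (0.855 to 6.92) and 3.98 at 48 h (1.91 to 9.32), but with so few reads the interval of the ratio between both folds ran from 0.446 to 6.56. Phlda3 reached a mean of 10 normalized reads only through its APAP pools, as did Cdkn1c, Aurka, Mcm2, Atf3, Chac1, Bmf and Gm20186 among the genes described below outside the marker lists, and for these genes the filter itself favours a higher value under APAP. Eda2r, a receptor of the tumor necrosis factor receptor family for ectodysplasin A2, was near the limit of detection with 1 and 4 reads at 24 h and 0 and 8 reads at 48 h. It did not reach the mean of 10 normalized reads. Its ratio at 24 h was 3.0 with an interval of 0.297 to 148, and at 48 h it was at least 2.33-fold higher when the 0 reads of that control library were set to the floor of 3 reads. With every count of 3 reads or fewer set to this floor, its ratio at 24 h was 0.999. The exact interval at 48 h had a lower bound of 1.49.

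Gdf15 and Sesn2 respond both to p53 and to the integrated stress response. Gdf15, a secreted protein of the transforming growth factor family, gave 9 and 38 reads at 24 h and 14 and 16 reads at 48 h. It was thus high in a single pool, 3.16-fold above control at 24 h (1.5 to 7.44), while at 48 h a difference was not detectable at this depth, at a ratio of 0.999 (0.457 to 2.21). Sesn2, a sestrin that restrains mTORC1 when leucine is low, gave 11 and 17 reads at 24 h and 9 and 6 reads at 48 h. Its ratios of 1.16 (0.512 to 2.73) and 0.583 (0.171 to 1.83) did not differ from 1 beyond counting error, and its APAP pools were both the highest and the lowest of the 4.

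At 24 h the APAP library thus lay above the control library beyond counting error for 6 of the 9 targets that passed the filter on low reads. These were Cdkn1a, Mdm2, Gdf15, Btg2, Bax and Trp53inp1, where the lower bound of the interval was above 1. Among all genes tested this was so for 15.4%. At 48 h it was the case for 4 of the 9 (Cdkn1a, Btg2, Trp53inp1 and Phlda3), against 13.9% of all genes, and at both times for 3 of the 9, against 5.86%. With the mean of 10 normalized reads asked of the control pools, which drops Phlda3, it was 6 of 8 targets against 14.6% of genes at 24 h and 3 of 8 against 13.2% at 48 h. The control pools at 24 h and 48 h, which received no APAP, were at least 2-fold apart for none of the 9, and for 5.26% of all genes tested in either direction. Differences between these libraries include differences between mice, between pools and between library preparations, which cannot be told apart with 1 library each. In RNA of whole liver, a change in the number of cells that express a gene and a change in the RNA per cell cannot be told apart either.

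**Figure D2:**
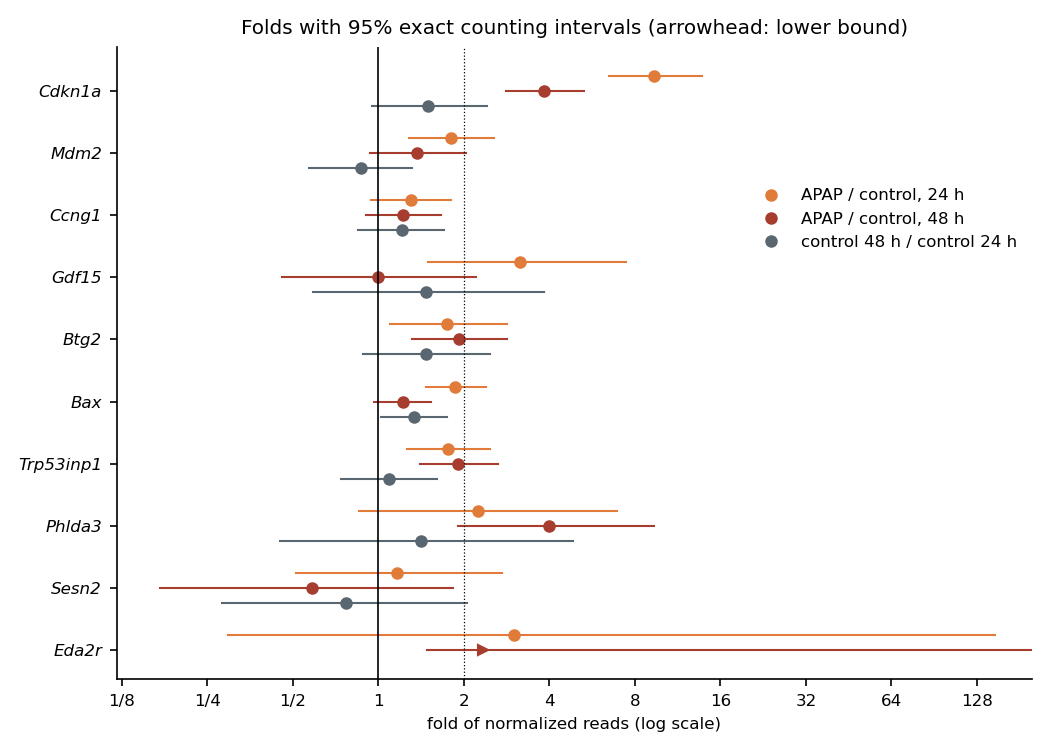
Fold of normalized reads (x axis, log scale) for each of the 10 targets, as APAP over control at 24 h and 48 h and as control 48 h over control 24 h, with lines for the 95% exact counting intervals, an arrowhead for a lower bound, a solid line at 1 and a dotted line at 2. Cdkn1a at 24 h (9.34) and 48 h (3.82) lies to the right of its interval between the control pools (0.948 to 2.42), and the intervals of Gdf15, Phlda3, Sesn2 and Eda2r are wide.

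The folds at both times were compared with each other through the ratio of the fold at 48 h to that at 24 h and its exact conditional interval. It was below 1 for Cdkn1a (0.409, interval 0.247 to 0.672), for Bax (0.649, 0.463 to 0.908) and for Gdf15 (0.316, 0.0998 to 0.983), which were nearer to control at 48 h than at 24 h. These are 3 of the 9 targets with enough reads, and among all genes tested the interval of this ratio left out 1 in 19.8%. After scaling to library totals, the ratio of Gdf15 was 0.334 and its interval included 1. The ratio rests on the control pools too. Against the sum of both control pools it is the ratio of the APAP pools alone, which was 0.615 for Cdkn1a (0.520 to 0.727), 0.464 for Gdf15 (0.241 to 0.851) and 0.867 for Bax (0.713 to 1.05), where 25.5% of all genes tested had an interval without 1. With the control pools of both times exchanged, which turns the difference between them around, the ratio was 0.925 for Cdkn1a, 0.680 for Gdf15 and 1.16 for Bax. The value of the ratio thus stayed below 1 under both for Cdkn1a and Gdf15, and for Bax against the sum only. For Bax the interval against the sum included 1, and no interval is given for the exchanged pools. With control pools of the same time, the ratio was 0.761 for Mdm2 (0.450 to 1.29), 1.10 for Btg2 (0.586 to 2.03) and 1.09 for Trp53inp1 (0.678 to 1.74). Each of these intervals included 1. Against the sum of both control pools the ratio was 0.660 for Mdm2 (0.486 to 0.892), 1.61 for Btg2 (1.15 to 2.25), 1.18 for Trp53inp1 (0.917 to 1.53) and 2.51 for Phlda3 (1.41 to 4.64). There the intervals of Mdm2, Btg2 and Phlda3 left out 1, and that of Trp53inp1 did not. A difference between times for these genes thus depended on the control pools used. With exchanged control pools the ratio was 0.573 for Mdm2, 2.36 for Btg2, 1.29 for Trp53inp1 and 3.55 for Phlda3. For Cdkn1a, Gdf15 and Bax alike, the control pool at 48 h was higher and the APAP pool lower than at 24 h, and both contribute to the ratio.

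Both time points together allow the only comparison with more than 1 library on each side, namely the effect of APAP averaged over 24 h and 48 h in 2 APAP against 2 control libraries. In the quasi-likelihood test of edgeR with time as a covariate, 5 of the 9 targets were higher with APAP at an adjusted p under 0.05, compared with 4.90% of all genes tested. Cdkn1a rose with a log2 fold of 2.55 (adjusted p = 4.3e-16), Trp53inp1 with 0.87 (adjusted p = 0.00277), Phlda3 with 1.66 (adjusted p = 0.0110), Btg2 with 0.88 (adjusted p = 0.0245) and Bax with 0.59 (adjusted p = 0.0290). Each of the 5 was higher in both APAP libraries than in both control libraries. Without Phlda3, which passed the filter only through its APAP pools, the count was 4 of 8, against 4.18% of the genes that reached the mean of 10 normalized reads in the control pools. Mdm2 missed the threshold (log2 fold 0.66, adjusted p = 0.0660), as did Gdf15 (0.85, adjusted p = 0.25), Ccng1 (0.33, adjusted p = 0.389) and Sesn2 (-0.18, adjusted p = 0.899). The error in this test is the disagreement of the APAP effect between 24 h and 48 h, as the pools of both times stand in for replicates. Its p-values thus do not measure a spread between mice or between pools of the same group. With 1 residual degree of freedom per gene, the spread in this test was mostly borrowed from the other genes. Without the time term, edgeR kept the calls of Cdkn1a and Trp53inp1 only. Phlda3 (log2 fold 1.67, adjusted p = 0.109), Btg2 (0.87, adjusted p = 0.140) and Bax (0.58, adjusted p = 0.121) lost theirs. In the Wald test of DESeq2 on the same libraries, the call was kept for Cdkn1a alone, and 1.02% of all genes tested were called higher. Of 12113 genes, edgeR called 594 higher and 1020 lower, and DESeq2 123 and 297. With library totals as effective sizes the balance turned, with 1098 higher and 494 lower.

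**Figure D3:**
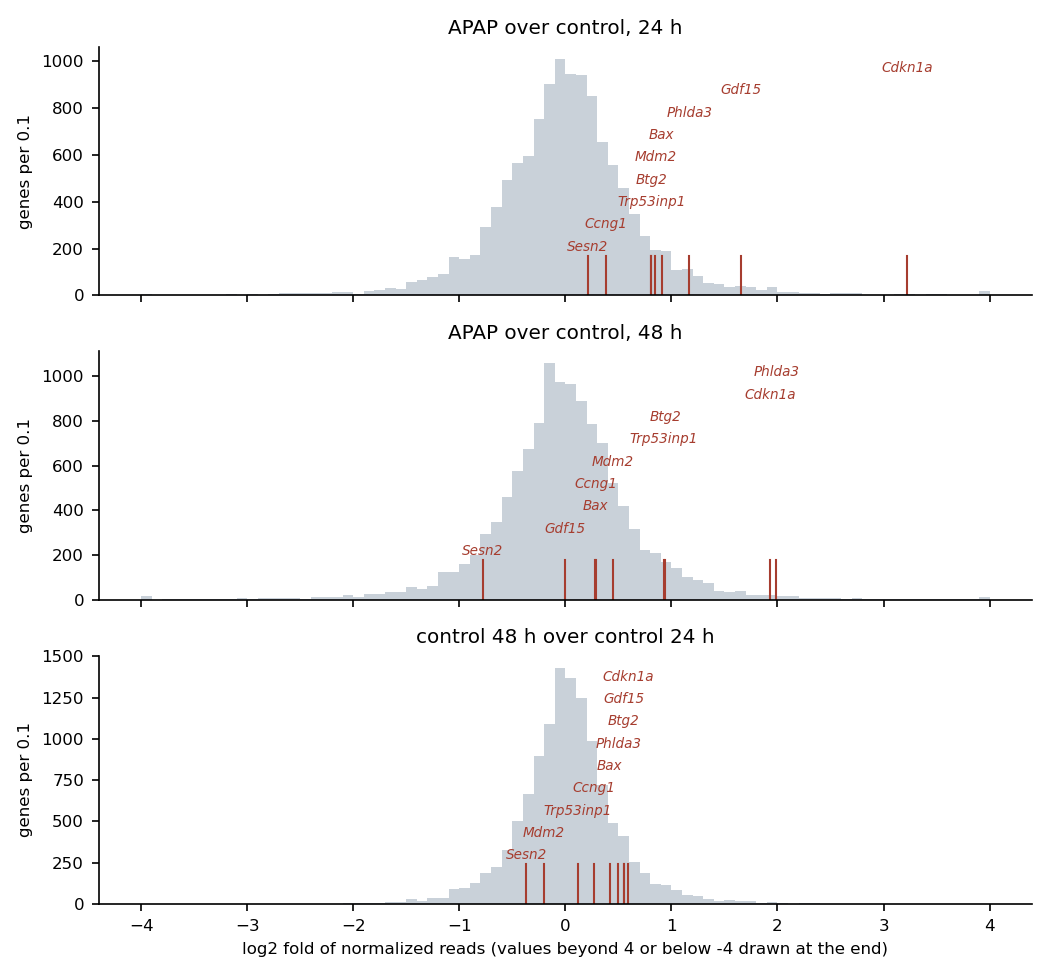
Distribution of log2 folds over the genes tested (grey bars, genes per 0.1 on the y axis) with the 9 targets that passed the filter on low reads as red lines, for APAP over control at 24 h and 48 h and for both control pools. At 24 h all 9 targets lie above 0, as do 50.4% of all genes, and Cdkn1a (3.22) and Gdf15 (1.66) lie beyond the middle 95% of all genes, which ends at 1.49. At 48 h 7 of the 9 lie above 0, as do 48.7% of all genes, and Phlda3 (1.99) and Cdkn1a (1.93) lie beyond the end at 1.39, whereas none of the 9 lies outside the middle 95% between the control pools.

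The median log2 fold of the 9 targets was 0.85 at 24 h and 0.45 at 48 h, while that of all genes tested was 0.01 and -0.02. Against the sum of both control pools the median of the targets was 0.75 and 0.47, and with the control pool of the other time 0.67 and 0.70, so that it was lower at 48 h with the former and not with the latter. Scaling to library totals in place of size factors moved the median of all genes up by 0.19 at 24 h and by 0.27 at 48 h, so that medians of gene lists nearer to 0 than this have no stable sign. Of the list of p53 and its regulators, with 12 of 16 genes tested, none of the 12 was at least 2-fold higher at either time. Chek1, which was not tested, gave 1 and 4 reads at 24 h, the same as Eda2r, and 2 reads in each pool at 48 h. Trp53, which encodes p53 itself, gave 34 and 59 reads at 24 h and 63 and 71 reads at 48 h, with ratios of 1.30 (0.839 to 2.05) and 0.986 (0.692 to 1.41). Its control pool at 48 h was 1.75-fold above that at 24 h (1.13 to 2.74). In normalized reads this control pool also lay above the APAP pool at 24 h (67.5 against 50.3). Mdm4, the partner of Mdm2 that masks the activation domain of p53, was at ratios of 1.01 and 1.28. Ppm1d, a phosphatase that switches off p53 signaling, stood at 1.33 and 1.35 and the coactivator Ep300 at 1.29 at both times. Atr, a kinase of the DNA damage response, was lower at 24 h (0.436, 0.255 to 0.729), with 43 and 25 reads, and stood at 0.736 at 48 h. No gene of this list passed the edgeR test over both times at an adjusted p under 0.05. At an unadjusted p under 0.05, edgeR found 1 of the 12 (Atr) and DESeq2 found 0, where 23.7% and 9.11% of all genes tested were under it.

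A further 44 p53 targets in 4 lists by function were used to describe the rest of the program, and 30 of them had enough reads. Of these 30, 6 were at least 2-fold higher and 3 lower at 24 h, while 2 were higher and 3 lower at 48 h, with median log2 folds of 0.07 and 0.04. Without the 2 of them that passed the filter only through their APAP pools, 5 of 28 were higher at 24 h and 1 of 28 at 48 h. In the edgeR test 4 rose, among them Plk3, Zmat3 and Pmm1, and 5 fell (Bbc3, Mgmt, Gls2, Gpx1 and Dcxr), where 4.90% of all genes tested were called higher and 8.42% lower. Over the 28 that reached the mean of 10 normalized reads in the control pools, 3 rose and 5 fell. Dcxr, a carbonyl reductase of xylulose metabolism, is named for completeness of this count, after its values were seen. DESeq2 kept 2 of these calls, Pmm1 (adjusted p = 0.0124) and Gpx1 (adjusted p = 6.5e-04). Among cell cycle targets, Plk3, a stress-responsive polo-like kinase, gave 23 and 127 reads at 24 h and 36 and 41 reads at 48 h. It was 4.14-fold higher at 24 h (2.64 to 6.76) and at control level at 48 h (0.996), whereas Plk2 showed ratios of 0.684 and 1.12.

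Among cell death targets, Zmat3, an RNA-binding zinc finger protein, gave 5 and 31 reads at 24 h and 15 and 28 reads at 48 h, with folds of 4.65 (1.79 to 15.3) and 1.63 (0.843 to 3.29). Its control pools differed by 2.83-fold (0.978 to 9.95), so that the larger fold at 24 h rests on a control pool of 5 reads. In normalized reads its APAP pools were alike, at 26.4 and 26.3. Bbc3, which encodes the BH3-only protein PUMA, was on the other side, with 42 and 22 reads at 24 h (0.392, 0.223 to 0.673) and 37 and 27 reads at 48 h (0.638, 0.374 to 1.08). Thus Bax and Bbc3, both promoters of mitochondrial cell death, moved in opposite directions in the test over both times (log2 fold 0.59 and -0.99), and neither call was kept in DESeq2 (adjusted p = 0.767 and adjusted p = 0.803). Of the DNA repair targets, Mgmt, which removes alkyl groups from guanine, was lower at both times, with ratios of 0.537 (0.414 to 0.696) and 0.530 (0.411 to 0.681). Ercc5, a nuclease of excision repair, gave 7 and 25 reads at 24 h and 17 and 23 reads at 48 h. It was 2.68-fold higher at 24 h (1.13 to 7.33) and at 1.18 at 48 h (0.605 to 2.36). Its control pools differed by 2.29-fold (0.903 to 6.53), while its APAP pools were alike at 21.3 and 21.6 normalized reads. The larger fold of Ercc5 at 24 h thus rests on a control pool of 7 reads. Gadd45a gave 20 reads in both pools at 24 h and 16 and 7 reads at 48 h, where its ratio was 0.383 (0.133 to 0.983).

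Targets of metabolism and autophagy moved in both directions. Pmm1, a phosphomannomutase, gave 16 and 75 reads at 24 h and 14 and 79 reads at 48 h, and was 3.51-fold (2.03 to 6.46) and 4.93-fold higher (2.77 to 9.44). Gpx1, a glutathione peroxidase that is abundant in hepatocytes, was lower by about the same ratio at both times, 0.495 (0.481 to 0.510) and 0.475 (0.461 to 0.488). Gls2, the liver-type glutaminase, stood at 0.457 (0.411 to 0.509) at 24 h and 0.804 (0.737 to 0.876) at 48 h.

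**Figure D4:**
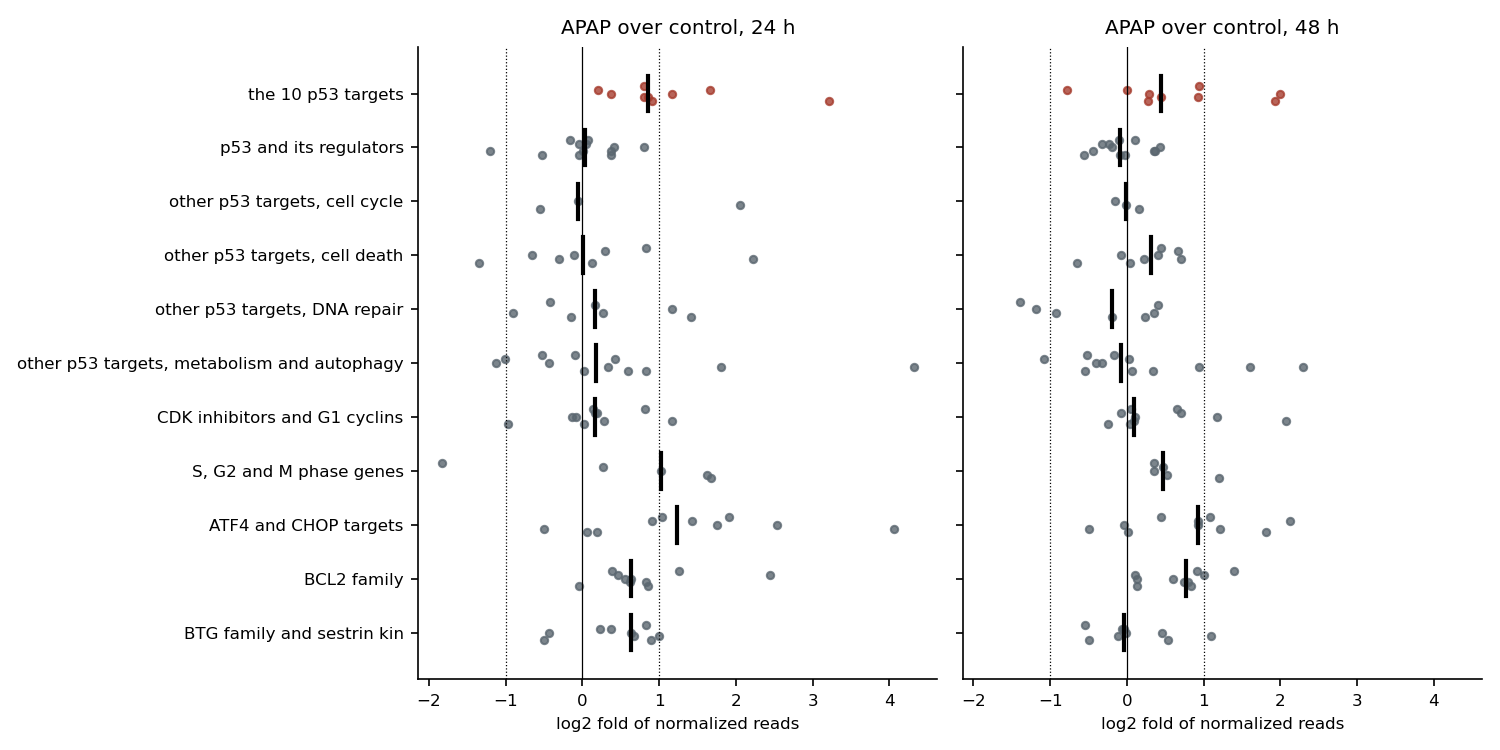
Log2 fold of normalized reads (x axis) for each tested gene of the 10 p53 targets (red) and of the other fixed lists (grey), at 24 h (left) and 48 h (right), with a black bar for the median of each list and dotted lines at 1 and -1. The median of the p53 targets is 0.85 and 0.45. That of the list of ATF4 and CHOP targets, which also holds the genes of both factors, is 1.23 and 0.93. With the control pool of the other time, these medians are 0.70 and 0.36 at 48 h, so that their order turns.

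Since Cdkn1a, Btg2 and Ccng1 act on the cell cycle, its other regulators were described next to them. Of 10 tested CDK inhibitors and G1 cyclins or kinases, 1 reached 2-fold at 24 h and 2 did at 48 h, none was 2-fold lower, and the median log2 fold was 0.16 and 0.09. Over the 8 that reached the mean of 10 normalized reads in the control pools, 0 were past 2-fold at 24 h and 1 was at 48 h. Cdkn1c, which encodes the p21 relative p57, gave 5 and 15 reads at 24 h and 5 and 24 reads at 48 h, with folds of 2.25 (0.777 to 7.91) and 4.20 (1.57 to 14.1). Cdkn1b, which encodes the other relative p27, stood at 0.512 (0.305 to 0.848) and 0.845 (0.490 to 1.46). Cdk6, a kinase that drives G1, was at folds of 1.77 (1.29 to 2.45) and 1.57 (1.15 to 2.17). Cdk6 passed the edgeR test (adjusted p = 0.0129), and Cdkn1c did so (adjusted p = 0.0386) after passing the filter through its APAP pools only. Both calls were lost in DESeq2 (adjusted p = 0.663 for Cdk6 and adjusted p = 0.797 for Cdkn1c) and in edgeR without the time term (adjusted p = 0.0532 and adjusted p = 0.111).

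Genes of S, G2 and M phase were scarce, and 5 of 18 had enough reads. Pcna, the sliding clamp of replication, gave 57 and 92 reads at 24 h and 62 and 98 reads at 48 h, with ratios of 1.21 (0.860 to 1.71) and 1.38 (0.996 to 1.93). Aurka, a mitotic kinase, was 3.21-fold higher at 24 h (1.38 to 8.66) and 2.30-fold at 48 h (0.977 to 5.99), and Mcm2, a subunit of the replicative helicase, 3.10-fold (1.33 to 8.39) and 1.43-fold (0.640 to 3.35). Rrm2, a subunit of ribonucleotide reductase, was lower at 24 h (0.281, 0.115 to 0.626), with 24 and 9 reads, and not at 48 h (1.29).

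ATF4 and CHOP drive the integrated stress response and share Gdf15 and Sesn2 with p53. The list of their targets also holds the genes of both factors, Atf4 and Ddit3. Of its 10 tested genes, 6 were past 2-fold at 24 h and 4 were at 48 h, and the median log2 fold was 1.23 and 0.93. Without Atf3 and Chac1, which passed the filter only through their APAP pools, it was 4 of 8 at 24 h and 2 of 8 at 48 h, with medians of 0.97 and 0.69. For all 10, the control pool of the other time gave medians of 1.62 at 24 h and 0.36 at 48 h. The sum of both control pools gave 1.43 and 0.52. Atf3, a transcription factor of the stress response, gave 5 and 111 reads at 24 h and 9 and 24 reads at 48 h, and was 16.6-fold (6.92 to 52.2) and 2.33-fold higher (1.05 to 5.70). Psat1, an enzyme of serine synthesis, was at folds of 2.69 (1.55 to 4.91) and 4.37 (2.02 to 10.8), and Atf4 itself at 1.14 and 1.01. Atf3 and Psat1 rose in the edgeR test over both times (adjusted p = 9.1e-07 and adjusted p = 6.1e-04), as did Ddit3, which encodes CHOP (adjusted p = 3.4e-06), and Cebpb (adjusted p = 8.4e-04). Ddit3 and Cebpb are named to complete the count of 4, after their values were seen. DESeq2 kept Atf3 (adjusted p = 0.0194) and Ddit3 (adjusted p = 0.0466) and not Psat1 (adjusted p = 0.163) or Cebpb (adjusted p = 0.155).

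In the list of the BCL2 family, which leaves out Bax and Bbc3 described above, 10 genes had enough reads. Of these 10, 2 were at least 2-fold higher at both times and none was at least 2-fold lower, whereas Bbc3 stood at 0.392 at 24 h. Bcl2l11, which encodes the BH3-only protein BIM, was 5.46-fold (2.47 to 14.3) and 2.02-fold higher (1.02 to 4.21), and Bmf 2.40-fold (0.839 to 8.37) and 2.62-fold (1.29 to 5.75), of which Bmf passed the filter only through its APAP pools. The founding survival gene Bcl2 stood at 0.970 and 1.09, and its survival relative Bcl2l1 at 1.78 (1.44 to 2.21) and 1.67 (1.37 to 2.04). The edgeR test called 3 of the 10 genes higher, namely Bcl2l11 (adjusted p = 0.00274), Bcl2l1 (adjusted p = 7.8e-04) and Bad, a promoter of cell death (adjusted p = 0.00848), and DESeq2 called 0, with 2 at an unadjusted p under 0.05. Another survival gene, Mcl1, stood at 1.47 (1.24 to 1.74) and 1.09 (0.926 to 1.29) and missed the edgeR threshold (adjusted p = 0.229). Bcl2l1, Bad and Mcl1 are named after their values were seen. Among relatives of Btg2, Sesn2, Phlda3, Ccng1 and Trp53inp1, Btg3 had the largest folds, 2.0 at 24 h (1.0 to 4.26), just under the threshold, and 2.15 at 48 h (1.03 to 4.79). It was the only one of 9 tested genes past 2-fold. Btg1 passed the edgeR test (adjusted p = 0.00433) and not that of DESeq2 (adjusted p = 0.441). Its folds were 1.86 (1.47 to 2.36) and 1.46 (1.16 to 1.84), where Btg2 stood at 1.75 (1.10 to 2.85) and 1.92 (1.32 to 2.83).

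Over the 3 log2 ratios that the 4 libraries give, namely APAP over control at 24 h and at 48 h and control 48 h over control 24 h, the nearest of 12097 genes to Cdkn1a by Euclidean distance were Gm20186 (distance 0.23), Cebpd (0.42), Socs3 (0.60), Gm3776 (0.60) and P2rx7 (0.60). Gm20186 and Gm3776 are predicted genes. Cebpd, a transcription factor of the acute phase, gave 11 and 141 reads at 24 h and 21 and 73 reads at 48 h. Socs3, the feedback inhibitor of cytokine signaling, gave 11 and 138 reads at 24 h and 17 and 49 reads at 48 h, and P2rx7, a channel gated by extracellular ATP, 9 and 97 reads and 10 and 51 reads. No other of the 10 p53 targets was among these 5.

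Marker genes of several cell types moved with APAP as well. The labelled tissue was checked by 7 hepatocyte markers, whose normalized reads summed to 393541 and 408864 under control and to 367182 and 411700 under APAP (24 h, 48 h), with Alb as the most abundant. Their median log2 fold was -0.20 at 24 h and -0.04 at 48 h. Monocyte markers summed to 128 and 149 normalized reads under control and to 490 and 955 under APAP, with Lyz2 as the most abundant. Of the 5 tested monocyte genes, Ly6c2, Ccr2 and Chil3 passed the filter only through the APAP pools, and of the other 2, Lyz2 and Fcgr1, 1 was past 2-fold at 24 h and 2 were at 48 h. Neutrophil markers went from 18.2 normalized reads in each control pool to 215 and 160, with S100a8 as the most abundant. Both tested genes, S100a8 and S100a9, passed the filter only through the APAP pools, while the neutrophil marker Elane gave 0 and 3 reads at 24 h and none at 48 h. Their part in the result for Cdkn1a and the other targets was not tested.

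Macrophage and Kupffer cell markers summed to 1386 and 1308 normalized reads under control and to 1358 and 2004 under APAP, with C1qa as the most abundant, and 1 of 9 genes was past 2-fold at 24 h and 2 were at 48 h. Stellate cell and fibroblast markers held 508 and 541 against 644 and 1093, with Dcn as the most abundant. Of 8 genes, 1 was past 2-fold at 24 h and 4 were at 48 h, among them Acta2 at 13.6-fold (7.77 to 26.0). Lrat, at 0.557 (0.322 to 0.951) and 0.832 (0.523 to 1.32), and Reln, at 0.957 and 0.846, were below control at both times. Cholangiocyte markers held 143 and 183 against 398 and 307, with Sox9 as the most abundant on average, while Krt19, a defining marker, gave 6 and 8 reads at 24 h and 13 and 8 reads at 48 h. Endothelial markers held 798 and 897 against 897 and 958, with Clec4g as the most abundant. Lymphocyte markers held 46.6 and 40.7 against 26.4 and 30.0, with Cd4 as the most abundant and Cd8a at 0 in every library. The part of these cells in the folds of the p53 targets was not tested.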

How the data were processed

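Hepatic RNA of 4 pools was sequenced by MACE, 1 library per pool. The authors removed duplicate reads by unique molecular identifiers, removed low-quality bases with cutadapt and poly(A)-tails with an in-house script, mapped to mm10 and counted reads per gene with HTSeq. The deposited counts were used without change. The same table holds library-scaled values and the authors' own ratios, p-values and FDR values, which were not used. The members and gene lists were chosen with earlier results of these data known. All 10 targets are named. Of each list, the 2 genes with the largest and the 2 with the smallest mean log2 fold may be named, with every gene allowed for p53 and its regulators, and for Cdkn1a the 5 nearest genes. The 12113 genes tested averaged 10 or more normalized reads over the 4 pools. Size factors were medians of ratios (0.880, 0.933, 1.17 and 1.07 for control 24 h, control 48 h, APAP 24 h and APAP 48 h). Folds carry 95% exact Clopper-Pearson intervals. A count of 0 was set to 3 reads, and no fold was formed from 2 counts of 3 or fewer. The test over both times was the quasi-likelihood test of edgeR 4.0.16 (TMM, time as covariate) with Benjamini-Hochberg adjustment, with DESeq2 1.42.0 as an alternative, in R 4.3.3. All other steps ran in Python 3.11.15 with scipy 1.17.1. The procedures were tested on simulated data. Gene starts and promoter windows were those of RefSeq. The values of 1 gene of the lists are not reported here.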

Additional observations from a re-analysis of the deposited data

Results flagged for a closer look

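The ratio of the fold at 48 h to the fold at 24 h had an exact conditional interval without 1 for 3 of the 9 targets with such a ratio. The ratio was 0.409 for Cdkn1a, 0.316 for Gdf15 and 0.649 for Bax. Against the sum of both control pools the ratios were 0.615 (0.520 to 0.727), 0.464 (0.241 to 0.851) and 0.867 (0.713 to 1.05), so that the interval of Bax included 1. Against this sum the interval also left out 1 for Mdm2 (0.660, 0.486 to 0.892), Btg2 (1.61, 1.15 to 2.25) and Phlda3 (2.51, 1.41 to 4.64). Of all genes tested, 25.5% had an interval without 1 there. With the control pools of both times exchanged the ratio was 0.925 for Cdkn1a, 0.680 for Gdf15 and 1.16 for Bax, so that the direction turned for Bax under this setting. This comparison is between libraries and not between mice, it covers counting error only, and among all genes tested 19.8% gave an interval without 1. For Gdf15 the upper bound of the interval was 0.983, and after scaling to library totals, at a ratio of 0.334, the interval included 1.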

How the results depend on the processing

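No paired analysis was possible because each group held 1 library, other than the block by time that the edgeR test over both times already holds, with 1 residual degree of freedom. For the same reason no library could be left out of a group. The number of targets at least 2-fold higher at 24 h, 48 h and both times (4, 3 and 3) was the same with TMM normalization. With library totals it was 7 at 24 h and 5 at 48 h (8.80% and 9.87% of all genes tested). With the control pool of the other time it was 5 at 48 h (6.03%) and 1 at both times, where Eda2r at 24 h had a lower bound of 1.06 only. With a threshold of 5-fold it was 1, 0 and 0 (0.743% and 0.586% at 24 h and 48 h), with one of 1.5-fold 8, 5 and 5 (14.2% and 13.6%), and with a lower bound of the interval above 2 it was 1, 1 and 1 (1.25% and 1.04%). Set against the control pool of the other time, Cdkn1a stood at 6.21 at 24 h and 5.75 at 48 h, and Bax at 1.40 and 1.62, and the median log2 fold of the targets was 0.67 and 0.70 in place of 0.85 and 0.45. Against the sum of both control pools these were 7.42 and 4.57 for Cdkn1a, 1.60 and 1.38 for Bax, and 0.75 and 0.47 for the median. The edgeR test called 5 targets (4.90% of all genes tested were called higher), 2 without this block by time (2.15%) and 6 with library totals (9.06%), and DESeq2 called 1 (1.02%). With all counts of 3 or fewer set to 3 reads, the ratio of Eda2r at 24 h became 0.999. With a pseudocount of 1 normalized read, 1 target and not 0 was at least 2-fold apart between the control pools. Both APAP pools lay above both control pools for 9 targets and not 8 with TMM normalization or library totals. Among the 9 targets tested it was 8 and not 7, where the share of all genes tested was 25.9% with TMM normalization and 44.2% with library totals. The share of all promoter windows with a p53 response element was 0.0670% with at most 1 mismatch and 1.38% with at most 3, and the same 2 targets held one in each case. The planned search of wider windows on each side of the starts was not run, as no genome sequence was used here. The search of promoter windows, the count of pools above control, the filter on control pools alone, the exchange or sum of control pools in the ratio of folds, and the counts without single targets were chosen after seeing the data. Depth limits Eda2r, Sesn2, Gdf15 and Phlda3, with at most 41 reads in any library.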
